A study of Mus musculus with 5 samples.

Results

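The miR-10, miR-99, miR-100 and miR-125 families were followed in mouse dendritic cells grown from bone marrow (BMDCs) after 24 h with flagellin or with medium alone. Members were chosen by name, as every mouse miRNA on the array called miR-10a, miR-10b, miR-99a, miR-99b, miR-100, miR-125a or miR-125b, with both arms of each hairpin. This gave 15 members, 7 of them 5p arms and 8 of them 3p arms, among the 1122 mouse miRNAs of the array. The BMDCs came from 6-week-old C3H/HeJ mice, were grown from bone marrow with recombinant GM-CSF and IL-4 and were sorted for CD11c, a surface marker of dendritic cells, on magnetic beads. All groups shared the C3H/HeJ strain, which carries a defective TLR4, the receptor for bacterial lipopolysaccharide. The flagellin group (3 arrays) received 100 ng/ml of flagellin (FliC), the bacterial protein recognized by TLR5, and the mock group (2 arrays) received medium alone. The labels do not say whether replicates came from separate cultures or animals, so the p-values measure only the spread between these samples, which may be technical.

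A miRNA is cut from a hairpin precursor whose 5′ and 3′ sides can each give a mature strand, called the 5p and the 3p arm. The seed, bases 2 to 8 of the mature strand, largely determines which mRNAs it represses. The families are related in sequence and in genome position. The miR-10 genes lie inside Hox clusters, the gene clusters that pattern the body axis, and miR-10a is also known to restrain NF-κB signalling. The miR-99 and miR-100 miRNAs are known as repressors of mTOR, a kinase that links nutrients to cell growth. The miR-125 miRNAs are known for their roles in blood stem cells and for targeting TNF and TNFAIP3, an inflammatory cytokine and a brake on NF-κB. In the mouse, miR-99 or miR-100 genes are paired with miR-125 genes and a let-7 gene in 3 related clusters.

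The 5p arms fell into 3 seed groups, and their mature sequences (RefSeq, GRCm38.p6, matched for 15 of 15 members) are shown with the seed in capitals because the seed groups and the genome clusters divide the same miRNAs differently. The miR-10 pair shared the seed ACCCUGU, miR-99a, miR-99b and miR-100 shared ACCCGUA, and the miR-125 pair shared CCCUGAG.
mmu-miR-10a-5p: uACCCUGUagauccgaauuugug
mmu-miR-10b-5p: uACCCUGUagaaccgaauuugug
mmu-miR-99a-5p: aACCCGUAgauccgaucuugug
mmu-miR-100-5p: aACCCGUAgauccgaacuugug
mmu-miR-99b-5p: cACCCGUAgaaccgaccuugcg
mmu-miR-125a-5p: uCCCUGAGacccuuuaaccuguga
mmu-miR-125b-5p: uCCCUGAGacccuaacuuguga
Counted from 1 at the 5′ end, miR-10a-5p and miR-10b-5p differed by 1 base, U12A, and miR-99a-5p and miR-100-5p by 1 base, U16A. From miR-99a-5p to miR-99b-5p there were 4 differences, A1C, U11A, U16C and U21C, all outside the seed.

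The array's probes for the closest sisters differ by a single base. The probes of these 4 miRNAs are shown because of that base, which is in capitals.
miR-10a-5p probe: cacaaattcggAtctacaggg
miR-10b-5p probe: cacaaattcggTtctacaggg
miR-99a-5p probe: cacaagAtcggatctacgg
miR-100-5p probe: cacaagTtcggatctacgg
The probes of miR-99a-5p and miR-100-5p are alike at 18 of 19 positions, with a longest unbroken match of 12 bases to the other miRNA. Those of miR-10a-5p and miR-10b-5p are alike at 20 of 21 positions. Whether a miRNA of either pair bound its sister's probe was not tested. On mm9, the build named in the files' header, the miR-10a-5p probe matches chr11:96178502-96178522 and the miR-10b-5p probe chr2:74564133-74564153. In the RefSeq annotation of GRCm38.p6, used here for names and neighbours only, Mir10a overlaps Hoxb3, and Mir10b overlaps Hoxd3 and Hoxd4. The miR-99a-5p probe lies at chr16:77599188-77599206, next to Mir99ahg, and the miR-100-5p probe at chr9:41339523-41339541 within Mir100hg.

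The clusters differ in size. Between the probe sites of miR-99b-5p (chr17:17967164-17967179) and miR-125a-5p there are 0.61 kb, and both genes lie within Spaca6 with Mirlet7e between them. In the other clusters the partners are far apart, at 47.3 kb from miR-99a to miR-125b-2 and 50.5 kb from miR-100 to miR-125b-1. Mature miR-125b-5p is made from both of these clusters (chr16:77646529-77646545 and chr9:41390028-41390044), so its signal cannot be assigned to either.

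The measurements were total gene signals, which sum the intensities of a miRNA's probes that exceed 3 times their error and are set to 0.1 where no probe does so, which is called not detected. Mouse miRNAs detected per array numbered 292 to 298 with flagellin and 301 to 317 with medium. Signals were divided by the array's 75th percentile over the 277 miRNAs detected on all 5 arrays and put on the log2 scale, here called the scaled log2 signal, with a common floor of −6.37. Of 6 miRNAs listed as myeloid markers, 6 were detected on all 5 arrays. Among them miR-223-3p had signals of 3464, 3393 and 2499 after flagellin, and 3118 and 2770 in medium alone. All arrays lay on 1 slide, and the flagellin arrays were in other array columns than the medium arrays, so column and treatment cannot be told apart. The small number of arrays limits the precision of every comparison. In RNA from a whole culture, fewer cells of a type and less RNA per cell cannot be told apart either.

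Detection divided the families by arm. Of the 15 members, 8 were detected on all 5 arrays, 1 (miR-10a-3p) on 4 arrays and 6 on none. The 6 were miR-100-5p and the 3p arms of miR-100, miR-10b, miR-99a, miR-125b-1 and miR-125b-2. Together the members held between 0.270% and 0.278% of the detected signal of an array, nearly the same share in every sample. The 9 detected members were compared between groups, and they passed the filter by detection on at least 2 of the 5 arrays, whatever the group.

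In the miR-99b/miR-125a cluster, mmu-miR-125a-5p had total gene signals of 205, 189 and 165 after flagellin, and 203 and 179.5 in medium alone. Its partner mmu-miR-99b-5p had signals of 104, 103 and 83.6 after flagellin, and 106 and 91.2 in medium alone. For both miRNAs the groups overlapped, and flagellin replicate 3, whose 75th percentile was also the lowest of the arrays (211), had the lowest signal. The 3p arms gave lower signals. The 3p arm miR-125a-3p had signals of 12.95, 10.4 and 8.05 after flagellin, and 14.3 and 14.4 in medium alone. For miR-99b-3p the signals were 4.06, 4.55 and 3.80 after flagellin, and 3.81 and 3.49 in medium alone. Before scaling, both medium signals of miR-125a-3p were above the 3 flagellin signals, whereas those of miR-99b-3p overlapped with the flagellin signals.

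The miR-99a and miR-100/miR-125b clusters gave signal from their miR-99a-5p and miR-125b-5p strands only. The signals of mmu-miR-125b-5p were 94.8, 127 and 72.2 after flagellin, and 92.8 and 79.7 in medium alone. Those of mmu-miR-99a-5p were 11.04, 15.3 and 7.70 after flagellin, and 9.998 and 8.89 in medium alone. Both were highest on flagellin replicate 2 and lowest on flagellin replicate 3, with the medium arrays between. No probe of mmu-miR-100-5p passed on any array. Its shorter probe (18 nt) gave negative readings on every array. The longer probe (19 nt) read 1.69, 3.02 and 1.47 after flagellin, and 1.93 and 1.45 in medium alone, where 3 errors were between 4.43 and 5.45. Across the 18 probes of the 6 undetected members, signals lay between −1.24 and 3.02, and the highest ratio of signal to error was 1.66, for that same probe.

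Of the miR-10 pair, mmu-miR-10a-5p had signals of 195, 184 and 137 after flagellin, and 179.9 and 164 in medium alone. The signals of miR-10b-5p were 12.7, 14.8 and 11.1 after flagellin, and 15.0 and 12.0 in medium alone. Groups overlapped for both. The signal of miR-10b-5p came from its 21 nt probe alone, since the 20 nt probe read 0.93 to 1.75 and passed on no array. Whether part of that signal came from miR-10a-5p was not tested. The other arm of miR-10a, mmu-miR-10a-3p, had signals of 5.79 and 2.59 on flagellin replicates 1 and 3 and of 5.94 and 2.87 with medium, and was not detected on flagellin replicate 2. Its 17 nt probe passed only on flagellin replicate 1 and medium replicate 1. Summed whether or not they passed, its probes gave 8.60, 6.58 and 6.68 after flagellin, and 9.13 and 7.57 in medium alone. The miRNAs encoded elsewhere in the Hox clusters (miR-196a, miR-196b and miR-615, both arms) were detected on no array, 0 of 7.

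**Figure D1:**
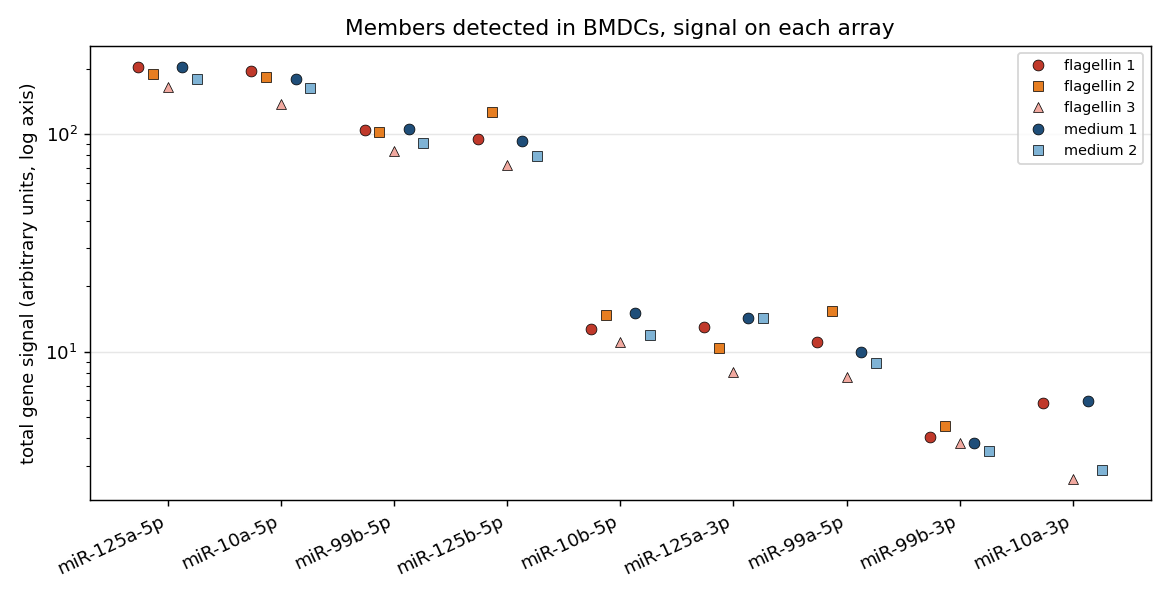
Total gene signal (arbitrary units, log axis) of the 9 detected members, with 1 point per array and no point where a member was not detected. The points of a miRNA lie close together, and miR-10a-3p has 4 points. Signals of different miRNAs come from different probes, so their order along the axis is not an order of abundance.

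Flagellin was then compared with medium for each detected member, on the scaled log2 signal. No member changed by limma's test with Benjamini-Hochberg adjustment over the 307 miRNAs tested: 0 of 9 members had an adjusted p under 0.05, against 2 of all 307 (0.651%), and 1 member had an unadjusted p under 0.05, as did 18 of all 307. The median difference of the 9 members was −0.0015, and that of all miRNAs was 0.0095. The 3 flagellin arrays were all above both medium arrays for 3 of 9 members (33.3%), miR-99a-5p, miR-125b-5p and miR-99b-3p, against 11.4% of all miRNAs. All 3 were below for 1 of 9 members (11.1%), miR-125a-3p, against 8.79%. When probes below 3 errors were summed too, the groups overlapped for miR-99a-5p and miR-125a-3p. The 9 members include hairpin partners and cluster partners, which are not independent of one another.

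The 5p arms of the miR-99b/miR-125a cluster differed between groups by less than the spread between flagellin arrays. For miR-99b-5p the scaled log2 signals were −1.43, −1.51 and −1.33 after flagellin, and −1.42 and −1.43 in medium alone, a difference of −0.0015 (standard error 0.085, 95% interval −0.23 to 0.22). For miR-125a-5p they were −0.46, −0.63 and −0.36 after flagellin, and −0.47 and −0.46 in medium alone, a difference of −0.018 (standard error 0.11, 95% interval −0.30 to 0.26, adjusted p = 0.987 in limma). As a fold these intervals run from 0.854 to 1.17 for miR-99b-5p and from 0.812 to 1.20 for miR-125a-5p. The probes of each miRNA moved little, by −0.046 and 0.024 for miR-99b-5p and by −0.080 and 0.012 for miR-125a-5p. Between them in the genome, let-7e-5p, of the let-7 family that is known to repress inflammatory cytokine mRNAs, had a difference of −0.012 (adjusted p = 0.990 in limma).

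For miR-10a-5p the scaled log2 signals were −0.53, −0.67 and −0.62 after flagellin, and −0.65 and −0.59 in medium alone. The difference was 0.011 (standard error 0.081, 95% interval −0.20 to 0.22, adjusted p = 0.990 in limma). The range of miR-10a-5p over the 5 arrays was 0.14 on the log2 scale, and 2.89% of the 277 miRNAs detected on all arrays had a smaller range. For miR-10b-5p the scaled log2 signals were −4.47, −4.31 and −4.24 after flagellin, and −4.23 and −4.36 in medium alone, and the difference was −0.046 (standard error 0.10, 95% interval −0.32 to 0.23). Set against each other, the difference of miR-10a-5p minus miR-10b-5p on the log2 scale was 3.94, 3.64 and 3.63 after flagellin, and 3.58 and 3.77 in medium alone, with overlapping groups. The signs of these small differences depend on the scaling: miR-10a-5p was at −0.015 without scaling and miR-10b-5p at 0.13 with the 75th percentile taken over all mouse miRNAs, which moved the median of all miRNAs to 0.19.

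The arms of miR-10a could not be compared closely. The 5p minus 3p difference was 5.07, 5.70 and 5.73 after flagellin, and 4.92 and 5.79 in medium alone, a change of 0.15 with flagellin. The spread within groups (SD 0.37 with flagellin and 0.61 with medium) was larger than this change. The value depends on where an undetected or faint miR-10a-3p is placed, and it was 1.23 with a floor 10 times lower. It turned to −0.18 with quantile normalization and to −0.29 without medium replicate 1. On the only array where miR-10a-3p was not detected, flagellin replicate 2, its 18 nt probe read 2.19 and 3 errors were 2.77. For miR-10a-3p itself the difference between groups was −0.14 (standard error 0.36, 95% interval −1.10 to 0.83).

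**Figure D2:**
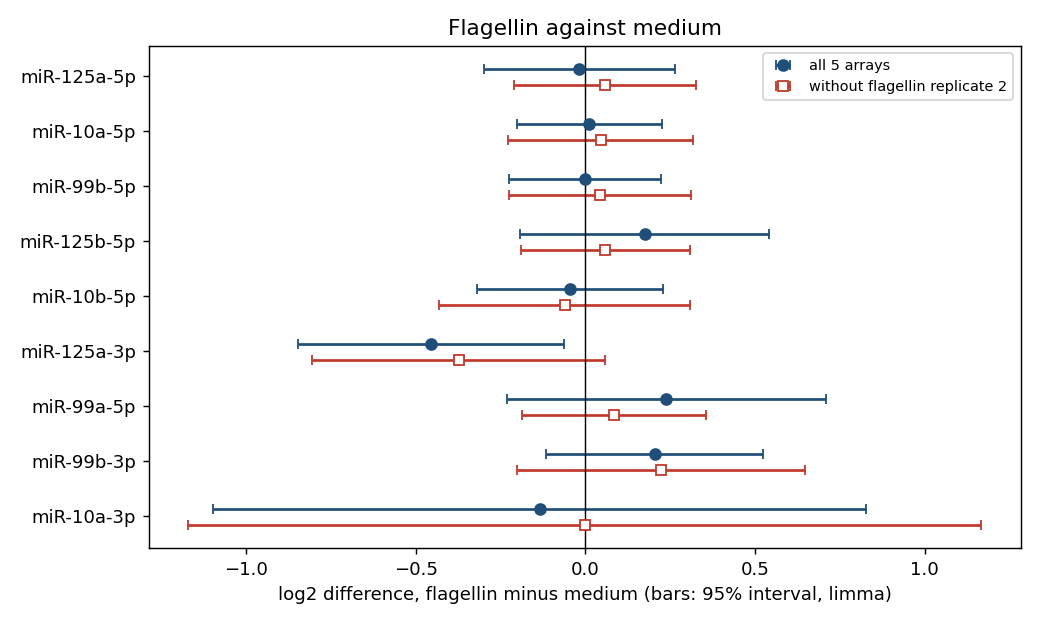
Difference in scaled log2 signal, flagellin minus medium, for the 9 detected members, with 95% intervals from limma. Filled circles use all 5 arrays and open squares leave out flagellin replicate 2. All intervals but that of miR-125a-3p with all arrays include 0, and the points of miR-99a-5p and miR-125b-5p move toward 0 without flagellin replicate 2.

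Of the members, miR-99a-5p and miR-125b-5p stood highest on the same array. For miR-99a-5p the scaled log2 signals were −4.67, −4.26 and −4.77 after flagellin, and −4.82 and −4.79 in medium alone, a difference of 0.24 (standard error 0.18, 95% interval −0.23 to 0.71, adjusted p = 0.859 in limma), or 1.18-fold. For miR-125b-5p they were −1.57, −1.21 and −1.54 after flagellin, and −1.60 and −1.63 in medium alone, a difference of 0.18 (standard error 0.14, 95% interval −0.19 to 0.54, adjusted p = 0.859 in limma), or 1.13-fold. All flagellin values were above both medium values, and the gap rested mainly on flagellin replicate 2. Without that array the differences were 0.083 for miR-99a-5p and 0.058 for miR-125b-5p, or 1.06-fold and 1.04-fold. Over all alternatives tried, the difference ran from 0.049 to 0.45 for miR-99a-5p and from 0.058 to 0.36 for miR-125b-5p. The probes of miR-125b-5p gave like differences, 0.18 for the 16 nt and 0.17 for the 17 nt probe. On the 16 nt probe alone the groups overlapped. The signal of miR-99a-5p came from its 19 nt probe alone, since the 18 nt probe passed on no array. Summed whether or not they passed, its probes gave −4.22, −3.82 and −4.47 after flagellin, and −4.36 and −4.37 in medium alone. On those sums the groups of miR-99a-5p overlapped, with a difference of 0.19.

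Flagellin replicate 2 stood 0.51 above the mean of the other 4 arrays for miR-99a-5p (place 10 of 277 miRNAs from the top) and 0.38 for miR-125b-5p (place 13). For miR-125a-5p it stood at −0.20 and for miR-99b-5p at −0.11, at places 223 and 175. A gap above 0.3 on that array was found for 19 of the 277 miRNAs. The same count was 7 on flagellin replicate 1, 33 on flagellin replicate 3, 27 on medium replicate 1 and 13 on medium replicate 2. The gap between the clusters was smallest on flagellin replicate 2. The mean of miR-99b-5p and miR-125a-5p minus the mean of miR-99a-5p and miR-125b-5p, with undetected miR-100-5p left out, was 2.17, 1.66 and 2.31 after flagellin, and 2.27 and 2.26 in medium alone. The change with flagellin was −0.22, against an SD of 0.35 among flagellin arrays, and −0.021 without flagellin replicate 2. It was −0.40 with quantile normalization and −0.068 with normexp.

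The distances between cluster partners and between seed partners were set side by side. Over the 5 arrays the log2 distance of miR-99a-5p from miR-125b-5p had a range of 0.18, and that of miR-99b-5p from miR-125a-5p a range of 0.096. By contrast, the seed partners miR-99b-5p and miR-99a-5p had a range of 0.70, and miR-125a-5p and miR-125b-5p one of 0.62. Without flagellin replicate 2 this order no longer held for every pair. The ranges were then 0.13 for miR-99a-5p from miR-125b-5p and 0.033 for miR-99b-5p from miR-125a-5p. Those of the seed partners were 0.20 for miR-99b-5p from miR-99a-5p and 0.077 for miR-125a-5p from miR-125b-5p. Likeness of pattern was measured as the root mean square difference of array-centred log2 signals over the 5 arrays. It is a description of few arrays, and miR-99a-5p and miR-125b-5p deviated most on flagellin replicate 2. Among the 276 other miRNAs detected on all arrays, miR-125b-5p and miR-99a-5p were each other's nearest, at 0.068, ahead of miR-30e-5p at 0.082 and 0.108, with medians over all miRNAs of 0.207 and 0.254. For miR-125a-5p the nearest was miR-181b-5p (0.018), with let-7e-5p at place 4 (0.034) and miR-99b-5p at place 6 (0.037). For miR-99b-5p the nearest were let-7c-5p and let-7a-5p (0.027 and 0.028), with miR-125a-5p at place 9. For miR-10a-5p the nearest were miR-138-5p, miR-17-3p and let-7f-5p (0.026 to 0.028), and miR-10b-5p was at place 136 (0.132).

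**Figure D3:**
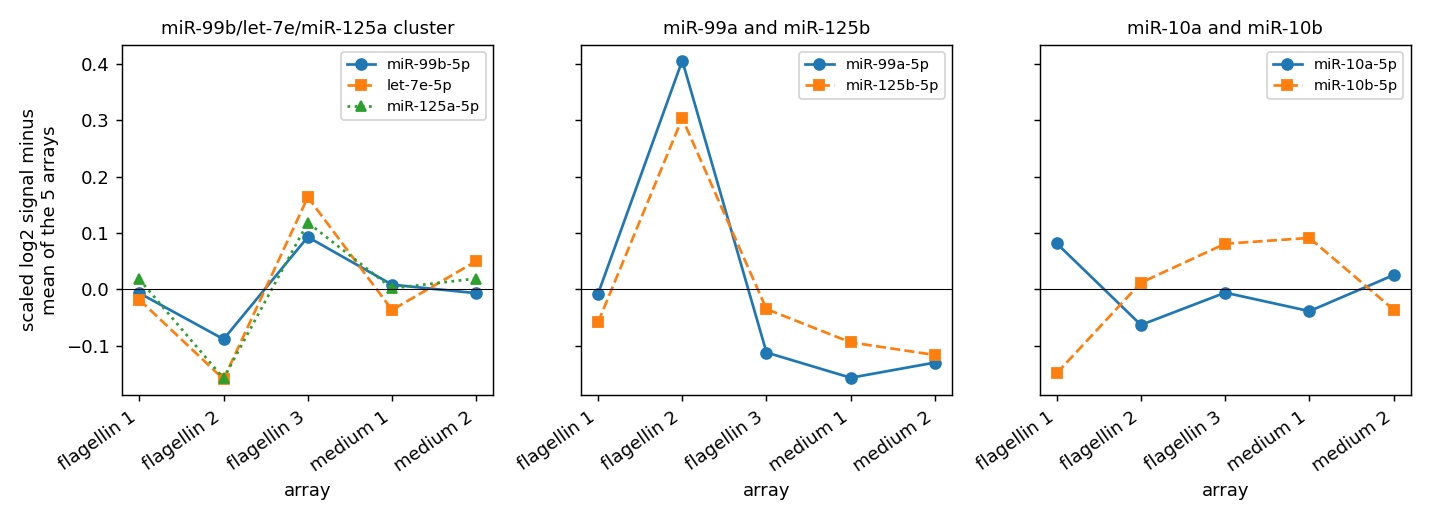
Scaled log2 signal of each 5p member on each array minus its mean over the 5 arrays, by cluster, with let-7e-5p beside miR-99b-5p and miR-125a-5p. Lines join the arrays only to guide the eye. The miR-99a-5p and miR-125b-5p traces rise together on flagellin replicate 2, where the miR-99b-5p, let-7e-5p and miR-125a-5p traces are at their lowest.

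Flagellin replicate 2 also held more signal from stromal, endothelial and red cell markers, and from part of the myeloid list, but not from epithelial markers. The summed signal of 5 stromal markers was 5.58, 53.1 and 0 after flagellin, and 5.59 and 0 in medium alone. In that list miR-199a-3p had 41.3 and miR-199a-5p 11.8 on flagellin replicate 2, the latter its only detection, while miR-214-3p, miR-143-3p and miR-145-5p were detected on no array. The endothelial marker miR-126-3p had signals of 12.6, 29.1 and 5.605 after flagellin, and 12.5 and 5.04 in medium alone, the largest gap of the 277 miRNAs on flagellin replicate 2 at 1.62, and its other arm miR-126-5p was detected on no array. The red cell miRNA miR-451 had 5.29 and 16.98 on flagellin replicates 1 and 2 and was not detected elsewhere, and miR-144 arms were detected on no array. Of 5 epithelial markers, 1 was detected, miR-200c-3p, on flagellin replicate 1 and medium replicate 1 (5.98 and 5.596). Its list was at 0 on flagellin replicate 2. Of the 6 myeloid markers, miR-142-5p and miR-142-3p were also raised on flagellin replicate 2, by 0.64 and 0.34 over the mean of the other arrays (places 6 and 16 of 277). The signals of miR-142-5p were 545, 914.5 and 375 after flagellin, and 644 and 505 in medium alone. Those of miR-142-3p were 1584.8, 2272 and 1039.5 after flagellin, and 2153 and 1644.2 in medium alone, so medium replicate 1 was close to flagellin replicate 2. The detected stromal, endothelial and red cell markers and these myeloid miRNAs were highest on the array where miR-99a-5p and miR-125b-5p were highest, and their part in that result was not tested.

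**Figure D4:**
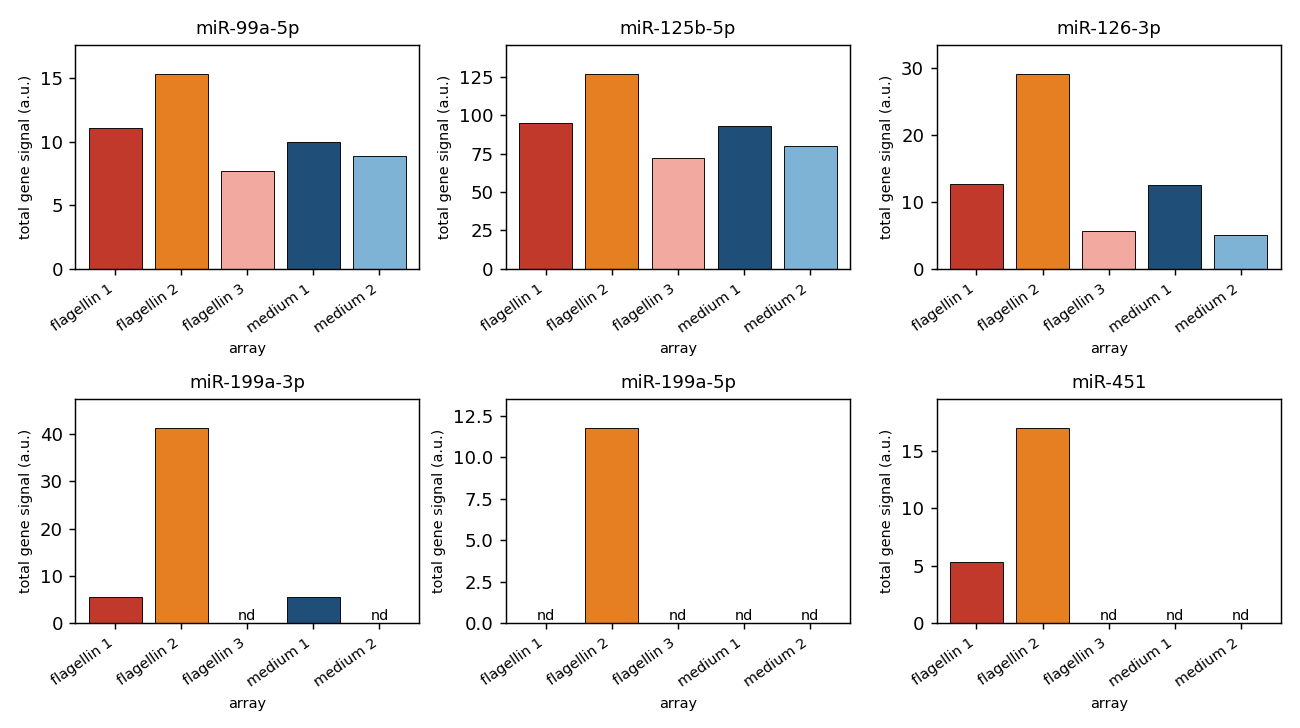
Total gene signal (arbitrary units, linear axis from 0, a separate scale per panel) of miR-99a-5p, miR-125b-5p and 4 markers of endothelial, stromal and red cells, with 1 bar per array and nd where a miRNA was not detected. In every panel the bar of flagellin replicate 2 is the highest, from 11.8 for miR-199a-5p to 127 for miR-125b-5p.

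The let-7 miRNAs that neighbour the clusters did not pass the test either. Of 7 found on the array by name, 4 went undetected throughout and 3 were seen on every array, and 0 of the 3 changed by limma's test. The signals of let-7e-5p were 403, 381 and 343 after flagellin, and 400 and 370 in medium alone. The differences of let-7c-5p and let-7a-5p were 0.028 and −0.025 on the log2 scale, with overlapping groups. These 2 miRNAs are each made from several genes, so they do not report on the miR-99a or miR-100 cluster alone.

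The member with the lowest unadjusted p was miR-125a-3p, the 3p arm of miR-125a, shown because its probes decide the result, with its seed in capitals.
miR-125a-3p: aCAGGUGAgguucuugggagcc
Its scaled log2 signals were −4.44, −4.82 and −4.71 after flagellin, and −4.30 and −4.10 in medium alone, a difference of −0.46 (standard error 0.15, 95% interval −0.85 to −0.064), or 0.729-fold. The unadjusted p was 0.0311 and the adjusted p 0.650 in limma, so it did not pass. Of its 4 probes, of 13, 14, 15 and 16 nt, the 16 nt probe read 4.61 to 5.47, clear of its limit of 3 errors (2.73 to 3.02), and the shorter probes read nearer to theirs. The 14 nt probe missed it on flagellin replicate 2 (2.44 against 2.78) and on flagellin replicate 3 (2.40 against 2.41), and the 13 nt probe missed it on flagellin replicate 3 (2.34 against 2.41). Every probe passed on the other 3 arrays.

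Summed whether or not they passed, the 4 probes of miR-125a-3p gave 12.95, 12.8 and 12.8 after flagellin, and 14.3 and 14.4 in medium alone. After scaling, these sums gave overlapping groups and a difference of −0.13 (adjusted p = 0.897 in limma). The 15 nt and 16 nt probes, which passed on every array, differed by −0.087 and −0.12. Thus most of the lower total gene signal of miR-125a-3p came with the probes left out of the sum on flagellin arrays. With spots corrected by normexp and quantile normalization the difference was −0.012. That setting made differences of other faint members small too (0.049 for miR-99a-5p), so it cannot decide the question for miR-125a-3p. In the same cluster miR-99b-3p, whose signal came from its 15 nt probe alone, had scaled log2 signals of −6.11, −6.01 and −5.79 after flagellin, and −6.21 and −6.14 in medium alone. It had a difference of 0.20 (standard error 0.12, 95% interval −0.12 to 0.52, adjusted p = 0.859 in limma), with all flagellin values above both medium values. Over the alternatives tried this difference ran from 0.026 with normexp to 0.42 with quantile normalization (unadjusted p 0.0287 in limma), and the lowest adjusted p was 0.387.

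**Figure D5:**
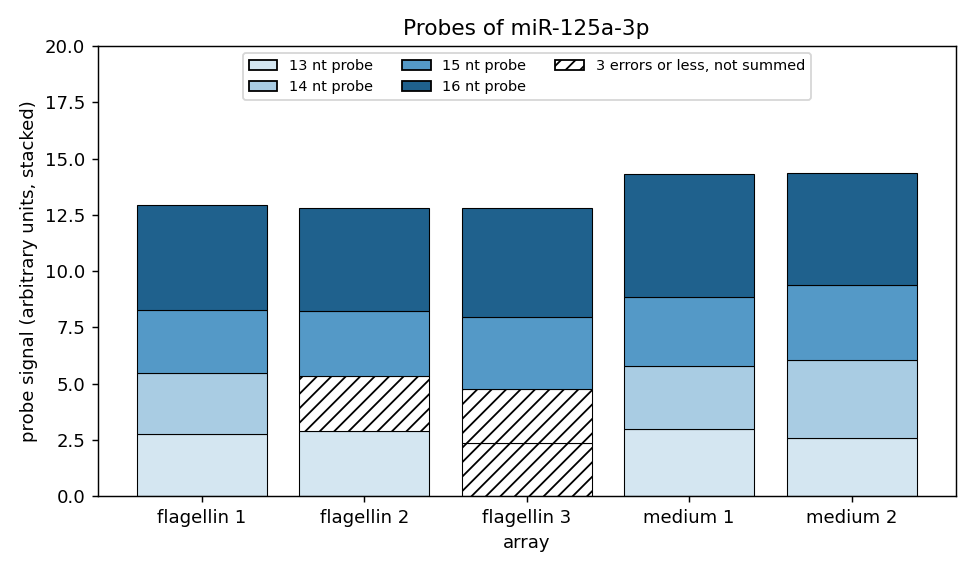
Signal (arbitrary units) of the 4 probes of miR-125a-3p, stacked per array, with probes at or below 3 errors hatched since the total gene signal leaves them out. Hatched parts are present on flagellin replicates 2 and 3 only, and the full stacks run from 12.8 to 14.4.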

How the data were processed

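Total RNA of C3H/HeJ BMDCs was labelled with Cy3 and hybridized by the authors to 1-colour Agilent mouse miRNA arrays. The deposited files hold intensity values from Agilent Feature Extraction 10.7 (per the labels), and the total gene signal of each miRNA was used as deposited. Applied to the probe signals, the rule of 3 errors gave 5610 of 5610 deposited total gene signals within a relative tolerance of 0.001. A further deposited table holds log2 values. Each equals the log2 of the total gene signal less the 90th percentile of its array, and the table served as an alternative.

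Signals were divided by each array's 75th percentile (taken over 277 mouse miRNAs found on every array). Values under 0.0121 were set to that floor, and log2 was taken. The 307 miRNAs detected on at least 2 of 5 arrays were fitted in limma 3.58.1 (R 4.3.3) with Benjamini-Hochberg adjustment, no covariates and 3 residual degrees of freedom. The fit was tested on simulated data with planted changes larger than any member showed in it, so that check does not cover small changes. Tables and figures were made with pandas 2.3.3, numpy 2.4.6 and matplotlib 3.10.9 under Python 3.11.15. The rule for members reads names only, but it, the neighbour lists and the marker lists were chosen with earlier results of these data known. Named miRNAs are the members, their let-7 and Hox neighbours, the markers and, for each member, the 3 nearest by pattern, of which the text gives those nearest. Alternatives covered scaling, floor, background, detection, filter, test, blocks and left-out arrays. The normexp background correction used an offset of 50, and the differences of faint members were smaller under it. No genome of the files' build was used here.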

Additional observations from a re-analysis of the deposited data

How the results depend on the processing

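With 3 against 2 arrays and signals of 7.70 to 15.3 for several members, small changes could not be resolved, and 0 members were called in each alternative run, by limma or by the methods' t-test. There were 9 members tested in each, except 8 where detection on all arrays was required. Of 152 member values under alternatives, 131 kept their direction and 21 turned, all of them uncalled. Many of the 131 could not turn, since the t-test and the filters reuse the main values and the lower floor moved only miR-10a-3p. The replicate block also repeats the values without flagellin replicate 3. The directions of miR-125a-3p, miR-99a-5p, miR-125b-5p and miR-99b-3p held in every alternative, including those that could not turn them. The causes were not tested.

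When all mouse miRNAs set the 75th percentile, which moved the median of all miRNAs to 0.19, the log2 difference was 0.044 for miR-10a-3p, 0.13 for miR-10b-5p, 0.16 for miR-125a-5p and 0.18 for miR-99b-5p. Without scaling miR-10a-5p was at −0.015. With quantile normalization miR-10a-3p was at 0.13, miR-10a-5p at −0.056 and miR-10b-5p at 4.3e-05. With normexp and quantile normalization of spots miR-10b-5p was at 0.012 and miR-99b-5p at 0.025. In the authors' table miR-99b-5p was at 0.0050. With array row as a block miR-10a-5p was at −0.0033. With each array left out in turn, miR-10a-3p ranged from −0.54 to 0.27, miR-10a-5p from −0.028 to 0.045, miR-10b-5p from −0.11 to 0.019, miR-125a-5p from −0.081 to 0.058 and miR-99b-5p from −0.048 to 0.042. The change of miR-10a-5p minus miR-10a-3p was 1.23 with a floor 10 times lower and 1.84 in the authors' table, but −0.18 with quantile normalization, and −0.29 to 0.58 with arrays left out (without medium replicates 1 and 2). For the difference between the clusters, leaving out arrays gave −0.35 to −0.021, the latter without flagellin replicate 2, quantile normalization gave −0.40 and normexp −0.068.

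Of all miRNAs, limma called 2. The count was 0 when all mouse miRNAs set the 75th percentile (14 with an unadjusted p under 0.05), without scaling (8), with quantile normalization (19), with normexp (28), without the detection rule (17) and with array row as a block (15). It was 4 with the lower floor and in the authors' table, 1 with detection required on all arrays or with no filter, and 2 by the methods' t-test after Benjamini-Hochberg adjustment. The methods' own threshold is an unadjusted p under 0.05 and a change over 2-fold. At it, that t-test gave 2 miRNAs and 0 members (14 and 0 by p alone). It was run here on the scaled log2 signals with their floor, not on the authors' table. It gave no p for 2 miRNAs without spread, which lay at the floor on all 5 arrays. Leaving out arrays gave 0 to 1, with 7 to 71 at an unadjusted p under 0.05, and 1 only without flagellin replicate 3. With the replicate number as a block the count was 0 (39 unadjusted), the cluster difference was −0.35 and miR-99a-5p was at 0.34. The deviations of same-numbered samples correlated at −0.043 and −0.076 over 277 miRNAs, and the labels name nothing that they share, so the numbers were not used as pairs.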
